A study of Mus musculus with 2 samples.

Results

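The genes described here are 10 core genes of transforming growth factor beta (TGF-beta) signalling. They are the co-receptor gene Eng, the ligand gene Tgfb1, the receptor genes Tgfbr1, Tgfbr2, Acvr1 and Bmpr1a, and the Smad genes Smad2, Smad3, Smad4 and Smad7. They were chosen by name, with earlier results of these data known. All 10 were on the array, each through 1 probe set that names no other gene, out of 8251 named genes. The array was hybridised with RNA from 2 samples of Lin-c-kit+Sca1+ cells sorted from mouse bone marrow. Such cells are negative for lineage antigens and positive for Sca-1 and Kit, the receptor of stem cell factor, and are enriched for haematopoietic stem cells and multipotent progenitors. The samples form 1 group, and the names sample 1 and sample 2 follow their titles. No genotype, strain, age, treatment or second condition is labelled, and whether separate animals or sorts were used is not stated. The spread between them may therefore be technical, no test was possible, and no p-value is given.

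TGF-beta reaches cells as a latent complex that must be activated. The active ligand assembles type II and type I receptor kinases, and the type I receptor phosphorylates Smad2 and Smad3, which enter the nucleus with the shared partner Smad4. Bone morphogenetic proteins (BMPs) use their own receptors and Smad1, Smad5 and Smad9. Endoglin, the product of Eng, is a membrane glycoprotein that binds ligands of both branches together with the signalling receptors. It is best known from endothelial cells and, as CD105, marks mouse haematopoietic stem cells with long-term repopulating activity. TGF-beta is known as a restraint on the proliferation of haematopoietic stem cells.

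The RNA passed through 2 rounds of amplification before hybridisation, per the labels. A signal here is a linear intensity after quantile normalization of both arrays. Signals under 20 were set to this floor before log2, so where 1 sample lay at the floor the fold is a lower limit, written "at least". The control level is the 90th percentile of 15 probe sets for bacterial genes, 8.91 in sample 2 and 12.1 in sample 1. A gene counted as above it if any of its probe sets passed in both samples. Of the 8251 named genes 57% did so.

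In both samples, 4 of the 10 member genes exceeded the control level, namely Eng, Tgfb1, Smad2 and Smad4. Smad7 was above it in sample 2 only. The other 5, which are the 4 receptor genes and Smad3, were above it in neither sample. Over all 8251 genes 71% were above it in sample 2 and 64.3% in sample 1. The members' share, 40%, was thus below that of all genes, and no test goes with this. Of 46 measured genes of other organs, 14 (30.4%) also passed this level in both samples. Passing it therefore does not by itself show that a gene was expressed. At a stricter level, the 90th percentile of the probe sets of genes of other organs (21.2 in sample 2 and 39.1 in sample 1), Eng and Smad4 remained, against 27.9% of all genes.

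**Figure D1:**
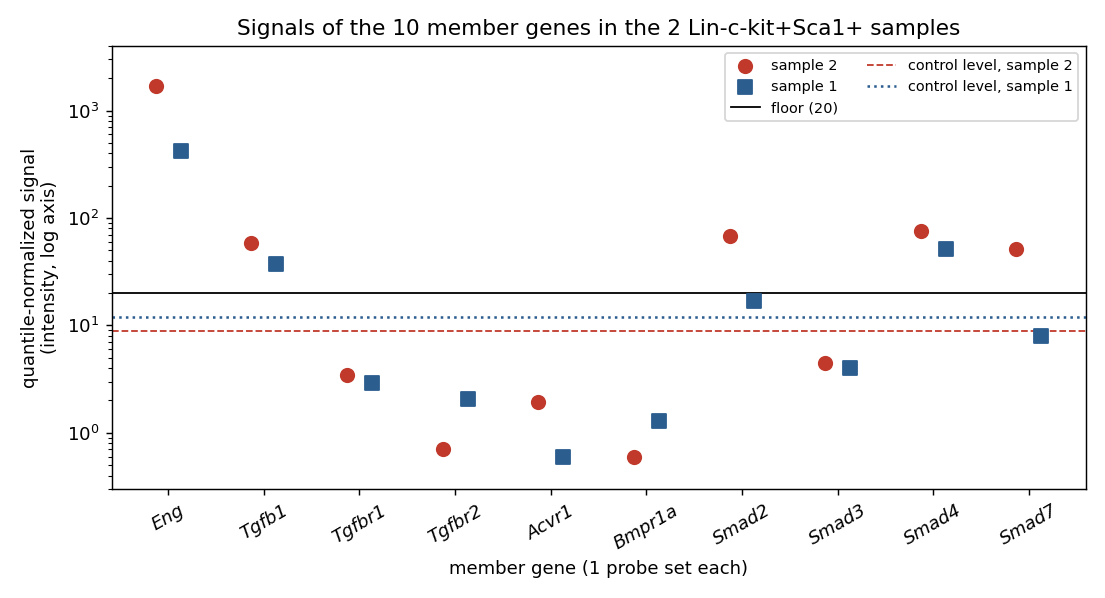
Quantile-normalized signal (intensity, log axis) of each member gene in sample 2 (circles) and sample 1 (squares), with the floor of 20 (solid line) and the control level of each sample (dashed and dotted lines). Eng stands far above these lines in both samples, Tgfb1 and Smad4 stand above all of them in both, Smad2 and Smad7 do so in sample 2 only, and the 4 receptor genes and Smad3 lie below every line.

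Among these 4 genes, RefSeq promoter windows for GRCm38.p6 were used here for Eng and Tgfb1 only. The sequences of these 2 windows are shown. Each run is the 250 bases before the annotated transcription start, read 5′ to 3′ along the gene. Both genes lie on the plus strand, with Eng at chr2:32646345-32646594 and Tgfb1 at chr7:25686752-25687001. Capitals mark the letters GGAA, the core that ETS family factors bind, or their complement TTCC.
Eng: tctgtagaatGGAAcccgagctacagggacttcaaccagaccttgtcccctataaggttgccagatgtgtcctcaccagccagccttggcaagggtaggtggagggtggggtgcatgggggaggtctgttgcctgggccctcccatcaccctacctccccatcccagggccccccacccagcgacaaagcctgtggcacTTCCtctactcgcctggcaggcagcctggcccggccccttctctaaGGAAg
Tgfb1: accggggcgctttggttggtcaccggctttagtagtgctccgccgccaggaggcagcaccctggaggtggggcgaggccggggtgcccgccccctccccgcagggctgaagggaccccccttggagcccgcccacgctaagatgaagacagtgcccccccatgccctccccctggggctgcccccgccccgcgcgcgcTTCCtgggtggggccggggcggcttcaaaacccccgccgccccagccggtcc

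The Eng window held 3 matches to GGAA on either strand, and the last of them began 5 bases before the start. ETS factors are known regulators of Eng in endothelial and blood progenitor cells. The Tgfb1 window held 1 match. Of all 32851 promoter windows of this length 93.4% held GGAA, so a match says little. The letters AGAC, the short box that Smad proteins bind, occurred 2 times before Eng and 1 time before Tgfb1, and in 82.9% of all windows. The longer Smad palindrome GTCTAGAC occurred in neither, and in 0.167% of all windows. GGGCGG, the GC box of Sp1, occurred 5 times before Tgfb1, and was not found before Eng. It occurred in 32.7% of all windows. GATA and TATAAA were found in neither window, and in 53.6% and 12.4% of all. Of the bases, 62.4% were G or C before Eng and 75.2% before Tgfb1. The matches overlapped each other in neither window. They are matches of letters, and no binding was measured here.

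Eng (probe set 100134_at) was clearly measured in both samples and was higher in sample 2. Its signal was 1700 in sample 2 and 419 in sample 1 (mean of the log2 signals 9.72 ± 1.43, SD, n = 2). Sample 2 was thus 4.06-fold higher, a log2 difference of 2.02. The deposited intensities, before quantile normalization, were 1660.7 in sample 2 and 413.2 in sample 1, which gives a ratio of 4.02. For comparison, the replicate SD over all probe sets above the control level was 0.58 on the log2 scale. It includes probe sets with both signals under the floor, which enter with no difference and so lower it.

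Among the 3330 genes with both signals above the floor, 51 (1.53%) were higher in sample 2 by as much as Eng or more, Eng included, and 107 (3.21%) differed by as much in either direction. Among the 577 genes with signals of 100 or more in both samples, a threshold chosen after seeing the data, 10.2% were 2-fold or more higher in sample 2 and 11 (1.91%) were 4-fold or more higher. Outside the members, the 5 genes whose difference between the samples was closest to that of Eng were Sox4, E2f8, Mknk2, Dynlrb1 and Smn1, at log2 differences between 1.99 and 2.04. Sox4 encodes a transcription factor of lymphoid and progenitor cells, E2f8 a repressor of the E2F family, and Mknk2 a kinase of the translation factor eIF4E. Likeness here is 1 difference between 2 samples and says nothing of shared function or control.

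**Figure D2:**
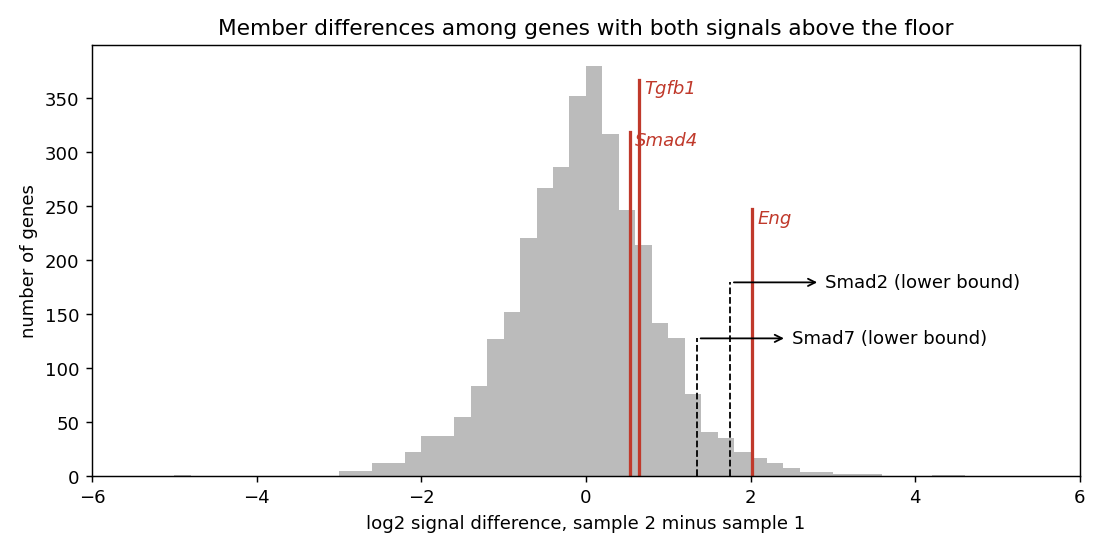
Histogram of the log2 signal difference, sample 2 minus sample 1, over the 3330 genes with both signals above the floor, with the differences of Eng, Tgfb1 and Smad4 as solid lines and the lower bounds of Smad2 and Smad7 as dashed lines with arrows. Eng, at 2.02, lies in the right tail, while Tgfb1 and Smad4 lie within the bulk of genes.

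Tgfb1 (probe set 101918_at), the ligand of the pathway that blood cells and platelets are known to make, gave 57.9 in sample 2 against 37.0 in sample 1 (mean of the log2 signals 5.53 ± 0.46, SD, n = 2). Both were above the floor. Its log2 difference of 0.65, or 1.57-fold, was close to the median absolute difference of 0.52 over the 3330 genes with both signals above the floor. It did not pass the stricter level in sample 1.

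The signalling receptors gave no signal that could be told from the bacterial controls. Those control probe sets ranged from 0.95 to 12.4 in sample 2 and from 0.75 to 12.9 in sample 1, with medians of 2.65 in sample 2 and 2.90 in sample 1. Tgfbr1 (probe set 92427_at), the type I receptor kinase for TGF-beta, had 3.45 in sample 2 and 2.90 in sample 1. Tgfbr2 (94702_at), the type II receptor that binds the ligand first, had 0.70 in sample 2 against 2.05 in sample 1. Acvr1 (93460_at), a type I receptor for BMPs and activins, had 1.95 in sample 2 and 0.60 in sample 1. Bmpr1a (92767_at), a type I receptor for BMPs, had 0.60 in sample 2 against 1.30 in sample 1. Tgfbr2 and Bmpr1a in sample 2 and Acvr1 in sample 1 were below the lowest control probe set. All 8 values were under the floor, so the ratios between the samples have no meaning. With 1 probe set per gene, amplified RNA and no detection calls used, these values show that the receptors were not detectable by these probe sets, and not that their RNA was absent.

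The Smad genes split. Smad4 (probe set 160440_at), the shared partner of all receptor-activated Smads, gave 75.4 in sample 2 against 51.9 in sample 1 (mean of the log2 signals 5.97 ± 0.38, SD, n = 2), a log2 difference of 0.54. Smad4 passed every control level used here and was the member with the smallest spread among the 3 whose signals were above the floor in both samples. Smad2 (104536_at), a Smad activated by the TGF-beta and activin receptors, had 67.5 in sample 2 and 16.8 in sample 1. The value in sample 1 was above the control level but under the floor, so Smad2 was at least 3.37-fold higher in sample 2. Smad3 (93613_at), which the same receptors activate, had 4.50 in sample 2 against 4.00 in sample 1, both among the bacterial controls.

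Smad7 (probe set 92216_at) encodes the inhibitory Smad, which TGF-beta induces and which blocks its receptor in turn. Its signal was 51.0 in sample 2, against 7.95 in sample 1, where it was not above the control level. It was at least 2.55-fold higher in sample 2. The deposited values were 49.0 in sample 2 and 8.1 in sample 1. A single probe set carries each of these results.

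Set against all genes, Eng and Smad2 were the 2 of 4 members past the control level in both samples that were 2-fold or more higher in sample 2, and none of the 4 was 2-fold or more lower. Of the 4707 genes above the control level in both samples, 9.62% were 2-fold or more higher in sample 2 and 11% were 2-fold or more lower. Over all 10 members, with the floor and no filter, the median log2 difference was 0.27, against 0 over all 8251 genes. Of the 10, 5 were higher in sample 2, 0 were lower and 5 were at the floor in both samples. A difference of any size counted here, and those of Smad2 and Smad7 are bounds. The matching shares over all 8251 genes were not computed, so whether this count is unusual cannot be said. In a sorted population of mixed progenitors a higher signal may mean more cells that carry a transcript or more RNA in each. It may also be a technical difference between the samples, and these cannot be told apart.

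Beyond the members, 75 of 97 genes on a wider list of the pathway were measured. Of the 75, 38 (50.7%) exceeded the control level in both samples, against 57% of all named genes. With the floor applied, 8 of the 38 were 2-fold or more higher in sample 2, 1 was 2-fold or more lower and 29 differed by less. The shares over all genes, given above, were 9.62% higher and 11% lower. Their median log2 difference was 0.20, against 0 over the 4707 genes above the control level, and it was 0 over all 75 with no filter. The share of 57% also stands beside the counts above the control level by role below. For the genes named below, the rule took the 3 with the highest mean log2 signal in each role. The text says where a gene was picked for its values.

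Among ligands 6 of 18 were above the control level and none was 2-fold apart once the floor was applied. Lefty1, picked for its values, had 13.45 in sample 2, under the floor, against 25.2 in sample 1. It was thus at least 1.26-fold lower in sample 2, and may be 2-fold or more lower. Bmp4, a BMP of the embryonic blood-forming environment, gave 27.5 in sample 2 against 42.2 in sample 1, with its other probe set under the control level in sample 1 and in sample 2. Gdf9, known from the oocyte, had 34.6 in sample 2 against 28.5 in sample 1, and Mstn, the muscle growth inhibitor myostatin, had 29.5 in sample 2 against 25.5 in sample 1. A gene known from the oocyte and a gene known from muscle thus passed the control level. Of Bmp4, Gdf9 and Mstn, Bmp4 passed the stricter level in both samples and the others did not.

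Of 8 receptor and co-receptor genes outside the members 4 (50%) were above the control level, near the 57% of all named genes. Among the 4 receptor genes of the members it was 0. At the stricter level 1 of the 8 passed in both samples, against 27.9% of all genes. Acvrl1, which encodes ALK1, a type I receptor that works with endoglin in endothelial cells, had 52.9 in sample 2 and 46.0 in sample 1. Its 2 other probe sets were also above the control level in both samples, at 10.7 and 17.7 in sample 2 and 35.9 and 32.6 in sample 1, so the probe sets disagreed on direction. Acvr2b, a type II receptor for activins, had 67.2 in sample 2 against 23.3 in sample 1 and was 2.89-fold higher in sample 2. Bmpr2, the type II receptor for BMPs, had 22.7 in sample 2 against 23.9 in sample 1, just above the floor.

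Among the other Smads, Smad1 of the BMP branch went against the members. Its signal was 31.8 in sample 2 and 75.8 in sample 1, so that sample 2 was 2.39-fold lower. With the floor applied it was the 1 gene of the list called 2-fold or more lower. Its other probe set, at 15.7 in sample 2 against 7.60 in sample 1, was under the floor in both samples and did not pass the control level in sample 1. The inhibitory Smad6 had 22.5 in sample 2 against 23.8 in sample 1. Smad5 was not above the control level in sample 1, and Smad9 was not analysed here.

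Of 8 genes that keep TGF-beta latent or release it, 3 were above the control level. Furin, the protease that cleaves the TGF-beta precursor, had 253 in sample 2 and 134 in sample 1. Itgav, the integrin alpha V chain whose dimers activate latent TGF-beta, had 193 in sample 2 against 72.5 in sample 1, 2.66-fold apart, while its 2 other probe sets were under the floor in both samples. Ltbp4, a latent TGF-beta binding protein, was at the floor in sample 2 and had 33.3 in sample 1. Of 9 extracellular antagonists 5 were above the control level, and none was 2-fold apart once the floor was applied. The proteoglycan gene Bgn had 33.0 in sample 2 against 43.7 in sample 1, while its other probe set went the other way, with 56.9 in sample 2 against 18.8 in sample 1. Dcn, another proteoglycan gene, had 13.4 in sample 2, under the floor, against 34.0 in sample 1. It was thus at least 1.70-fold lower in sample 2, and may be 2-fold or more lower. The BMP antagonist Nog had 26.4 in sample 2 and was at the floor in sample 1.

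Of 13 intracellular regulators 8 were above the control level. Crebbp, a histone acetyltransferase that Smads recruit, had 170 in sample 2 and 87.6 in sample 1. Fkbp1a, whose product FKBP12 binds and restrains type I receptors, had 94.0 in sample 2 against 62.9 in sample 1, and the Smad corepressor Ski had 54.1 in sample 2 against 38.0 in sample 1. Tgif1, another corepressor of Smads, was picked for its values as the 1 regulator 2-fold apart. It had 100.2 in sample 2 and 19.7 in sample 1, at least 5.01-fold higher.

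Of 16 genes that TGF-beta or BMP signals are known to act on, 10 (62.5%) were above the control level, against 57% of all named genes. Of the 10, 5 were 2-fold or more higher in sample 2 and none lower. Over all genes above the control level in both samples these shares were 9.62% and 11%. The list is small and no test goes with this. Klf10, a zinc finger factor known as a TGF-beta inducible early gene, had 119 in sample 2 and 54.7 in sample 1, and by its other probe set 50.1 in sample 2 against 36.7 in sample 1. Gadd45b, a stress gene, had 310 in sample 2 against 14.3 in sample 1, at least 15.5-fold apart, but by its other probe set 83.2 in sample 2 against 37.4 in sample 1, or 2.23-fold. The AP-1 gene Junb had 95.2 in sample 2 against 53.5 in sample 1, and by its other probe set 75.8 in sample 2 against 8.55 in sample 1, at least 3.79-fold. The 5 genes were Klf10, Gadd45b, Cdkn1a, Tsc22d1 and Atf3, of which the last 3 were picked for their values. Cdkn1a, the cell cycle inhibitor p21, had 75.4 in sample 2 and 33.5 in sample 1, and by its other probe set 76.0 in sample 2 against 4.40 in sample 1. Tsc22d1, a leucine zipper gene first found as TGF-beta inducible, had 51.3 in sample 2 against 23.0 in sample 1. Atf3, a stress-induced factor, had 244 in sample 2 and 12.6 in sample 1, at least 12.2-fold apart. Of its 2 other probe sets, one had 56.6 in sample 2 against 3.25 in sample 1, and the other had 1.85 in sample 2 against 2.25 in sample 1, both among the bacterial controls. Atf3, Gadd45b and Junb also belong to the immediate early and stress genes, which many stimuli induce. Whether TGF-beta signalling had a part in any of these differences was not tested.

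**Figure D3:**
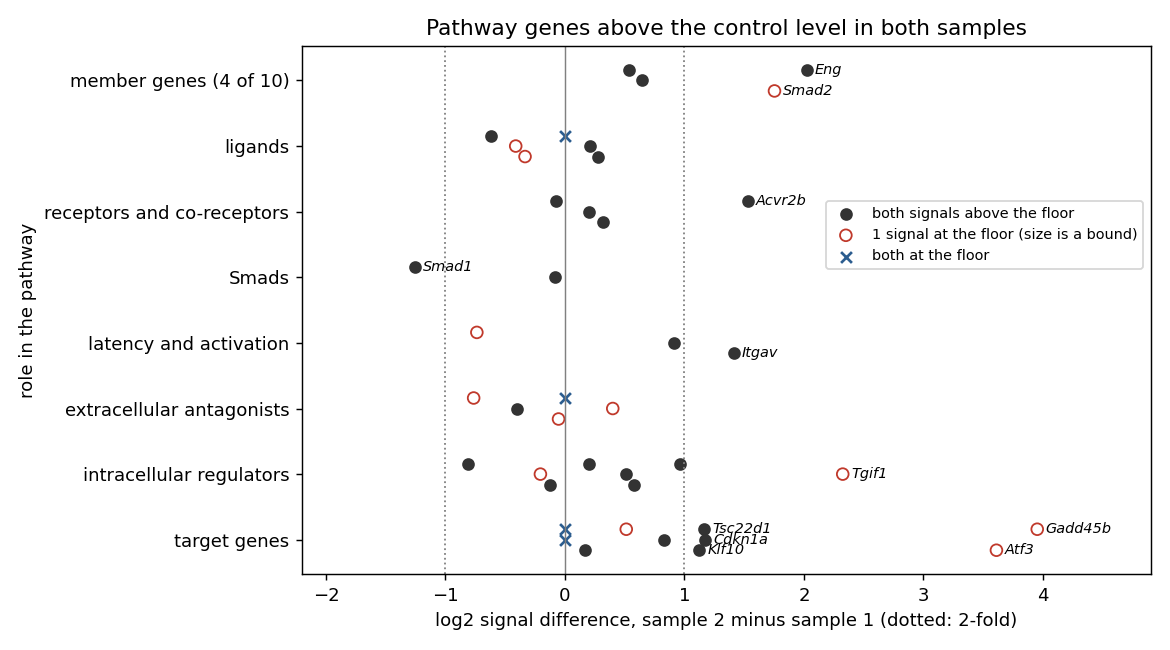
Log2 signal difference, sample 2 minus sample 1, of the pathway genes above the control level in both samples, by role. Filled points have both signals above the floor, open points have 1 at the floor and so show a bound, crosses have both at the floor, and dotted lines mark 2-fold. Higher signals in sample 2 by 2-fold or more number 2 among the member genes and 5 among the target genes, with Acvr2b, Itgav and Tgif1 in the other roles, and Smad1 is the 1 gene past 2-fold the other way.

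Of the 11 stem and early progenitor genes on the array 10 exceeded the control level in both samples, against 57% of all named genes. The stricter level was exceeded by 6, against 27.9% of all genes. Kit itself was at 19.4 in sample 2, just under the floor, and 25.8 in sample 1, and passed the stricter level in neither. The summed signal of the 11 was 3082 in sample 2 and 1613 in sample 1. Lyl1 alone had 2224 in sample 2 and 695 in sample 1, which accounted for more than the whole difference in the sum. Without Lyl1 the sum was thus not higher in sample 2. Of the 10 past the control level, 4 were 2-fold or more higher in sample 2 and 2 were 2-fold or more lower. Over all genes past it in both samples, 9.62% were higher and 11% lower by that much. Sca-1 was not analysed here. Of 10 endothelial genes, the cell type Eng is best known from, 5 exceeded the control level in both samples, near the share of all genes. Their summed signal was 332 in sample 2 and 186 in sample 1. The other 5, Cdh5, Tek, Flt1, Nos3 and Cldn5, had signals under the control level by every probe set, and none was at 0. Tie1, a receptor kinase of endothelial and early blood cells, had 175 in sample 2 and 34.2 in sample 1, and accounted for most of the difference in the sum. By its other probe set it gave 4.70 in sample 2 against 2.80 in sample 1, among the bacterial controls. Emcn, which encodes endomucin, had 52.5 in sample 2 against 36.2 in sample 1. Vwf, the gene of von Willebrand factor, had 53.8 in sample 2 against 33.0 in sample 1. The other probe sets of Emcn and Vwf were under the control level. Kdr, a receptor for vascular endothelial growth factor, had 12.1 in sample 2 against 14.8 in sample 1, both under the floor. Pecam1, an endothelial and leukocyte adhesion gene, had 24.3 in sample 2 against 49.4 in sample 1.

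Of 5 measured megakaryocyte and platelet genes 0 exceeded the control level in both samples, against 57% of all named genes. By the probe set used for each gene, 2 were above it in sample 2 and 2 in sample 1. Their summed signal was 53.6 in sample 2 and 56.5 in sample 1. The share of 57% also stands beside the counts that follow. Of 10 stromal genes 5 exceeded the control level in both samples, with sums of 336 in sample 2 against 302 in sample 1. Of 8 erythroid precursor genes 6 were above it, with sums of 1214 in sample 2 against 1207 in sample 1 and members that went far in both directions. Of 8 monocyte and macrophage genes 5 were above it, with sums of 161 in sample 2 and 411 in sample 1. Of 8 T and B lymphocyte genes 3 were above it, with sums of 134 in sample 2 against 126 in sample 1. The part of these cells in the differences of the member genes was not tested.

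**Figure D4:**
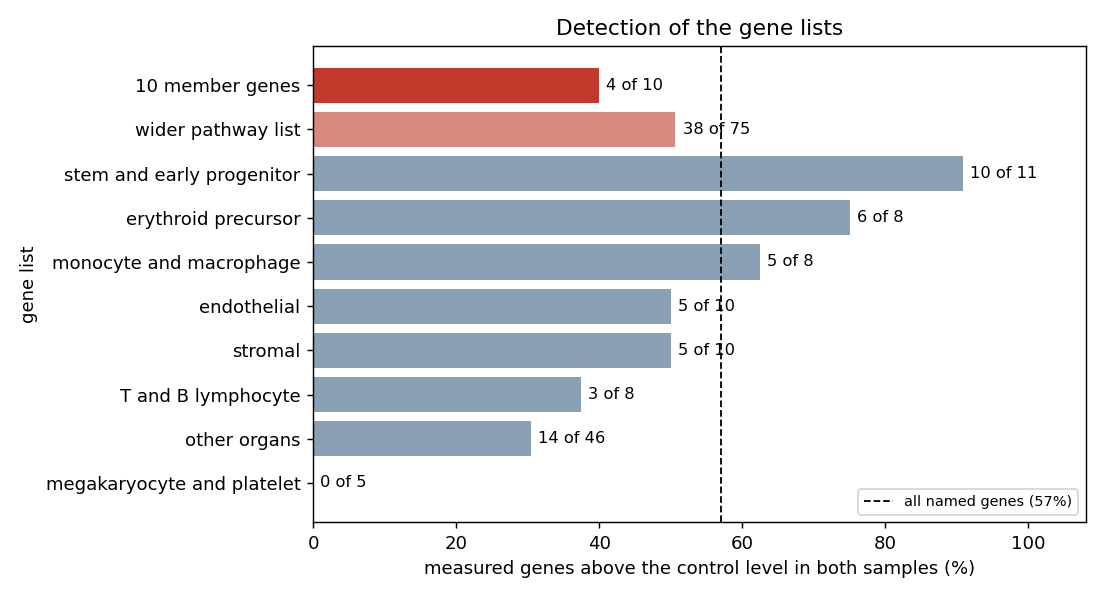
Share of the measured genes of each list that exceeded the control level in both samples (%), with the count beside each bar and the share of all named genes as a dashed line. The 10 member genes (4 of 10) lie below that line, and the stem and early progenitor genes (10 of 11) lie furthest above it.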

How the data were processed

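The deposited table held 1 signal intensity per probe set on a linear scale, for 12488 probe sets of an Affymetrix mouse array in each of 2 samples. For the authors' summarising and scaling steps, the software was not given in the sources used here. Equal means of both columns (53.9) are what a common scale factor gives. Both arrays were quantile-normalized, values under 20 were set to 20, and log2 was taken (Python 3.11.15, numpy 2.4.6, pandas 2.3.3). This floor held 57.9% of the values in sample 2 and 57.8% in sample 1. The 66 control probe sets were left out of all counts. Gene names came from the platform annotation. Of 12422 other probe sets 10833 named 1 gene, and those naming several (396) or none (1193) entered no gene. The GRCm38.p6 gene table held the IDs of 10817 of the 10833 and changed 0 symbols. A gene was represented by its probe set of highest mean log2 value. Differences are log2(sample 2) minus log2(sample 1). The normalization and difference steps were tested on simulated data.

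The members, lists and rule for named genes were chosen with earlier results of these data known. The rule names all members, the 3 strongest genes of each pathway role and the 5 genes closest to Eng. Of the 97 listed pathway genes 22 had no probe set naming them alone and were not used. Promoter windows are RefSeq's (GRCm38.p6). No test is possible within 1 group of 2 samples, and the number of arrays limits the precision. Alternatives varied the scaling, floor, control level, filter and probe set rule, and left out each sample.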

Additional observations from a re-analysis of the deposited data

How the results depend on the processing

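The count of member genes above the control level, 4, ranged from 4 to 5 with 1 sample left out (5 in sample 2 alone), and was 4 with the deposited scaling, median-centring, the highest bacterial control as the level, or all probe sets of a gene. With the stricter level from genes of other organs it was 2, as was the count of member probe sets. The pathway count of 38 ranged from 43 to 57 with 1 sample left out and was 13 at the stricter level. It was 28 where every probe set of the gene was required. The log2 difference of Eng ranged from 1.94 (offset of 32) to 2.14 (median-centring) over 5 alternatives. The median member difference, 1.20 over the 4 genes that passed, ranged from 0.70 (offset of 32) to 1.33 (no floor) where the filter was kept, and was 0.27 with no filter on low values, since 5 of the 10 were then at the floor. The median pathway difference of 0.20 was 0 with no filter. Neither Eng nor Smad2, the members called 2-fold or more apart, changed direction under the alternatives run for them. The differences of single genes outside the members were not recomputed. Without the floor Smad7 moved to 2.68, Tgfbr2 to -1.55, Acvr1 to 1.70 and Bmpr1a to -1.12, all of which rest on signals under the control level in at least 1 sample. Over all genes above the control level the median moved by less than 0.1 with any scaling. No paired analysis was possible because both samples belong to 1 group. The signal over background limits what can be said of the receptors and Smad3.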
